A study of Homo sapiens with 2 samples.

Results

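HOX cluster genes encode homeodomain transcription factors and lie side by side in the clusters HOXA, HOXB, HOXC and HOXD. They were followed in A549 cells, a human lung carcinoma line, that had been treated with TGF-β at 1 ng/ml for 12 h, and in A549 cells cultured without TGF-β as control. RNA of each condition was hybridized to 1 Affymetrix array, so nothing here could be checked against a replicate, no p-value is given, and precision is limited by this number of arrays. The members were the genes whose symbol is HOXA, HOXB, HOXC or HOXD and a number, on probe sets that the platform annotation pairs with that symbol alone. This gave 28 genes with 44 probe sets, of 19775 genes with such a probe set in all, and each gene was represented by the brightest of its probe sets. RefSeq lists 39 HOX genes. All 10 genes of HOXB and all 9 of HOXC were measured, as were 8 of the 9 of HOXD, while of the 11 HOXA genes only HOXA2 was, and the other 10 HOXA genes and HOXD3 were not analysed here. The arrays therefore describe HOXB, HOXC and HOXD, and give 1 gene of HOXA.

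HOX proteins bind DNA through the homeodomain, usually together with TALE homeodomain partners of the PBX, MEIS and PKNOX families, and set the identity of body segments along the axis from head to tail. The genes of a cluster are arranged in the order in which they are used along that axis. Low-numbered paralog groups act in the hindbrain and neck, middle ones in the trunk, and high-numbered ones in the lumbar and tail regions and the limbs. Adult cells keep much of the pattern of their site of origin, which Polycomb complexes hold silent and MLL (trithorax) complexes hold active, and retinoic acid is a classical inducer of the low-numbered genes. In the mouse lung, the mesenchyme around the branching airways expresses several genes of HOXA and HOXB.

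Signals are MAS5 intensities, on a linear scale in arbitrary units. The highest of 27 probe sets for Bacillus subtilis transcripts served as the background of an array, 56.6 with TGF-β and 45.8 without. A probe set at or under it was treated as not above background, and where only the brighter signal was above background, the background level took the place of the dimmer one and the fold is a lower bound ("at least"). The trimmed mean, leaving out 2% of the signals at either end, was 500 on both arrays. Probe sets differ in how brightly they hybridize, so a signal was set only against the background and against the other array, never against the signal of another gene. Of 7 measured genes known to respond to TGF-β, 6 were at least 2-fold higher on the TGF-β array. Among all genes that passed the filter described below, 3.94% were. The 6 included the collagen gene COL1A1, with 10680 with TGF-β and 821 without, and the growth factor CCN2, with 6533 and 674. Other probe sets of COL1A1 above background on both arrays were 5.44-fold and 1.17-fold higher. All 6 markers of epithelial cells (KRT7, KRT8, KRT18, KRT19, EPCAM and CDH1) were above background on both arrays, and CDH1, the adhesion molecule E-cadherin, was 2.31-fold lower with TGF-β. NKX2-1, the transcription factor of the lung lineage, was not above background on either array, with signals of 11.0 with TGF-β and 14.7 without, and of 6 alveolar markers 4 were above background on both. SFTPC was among these through a single probe set, with 84.7 with TGF-β and 58.9 without, and its other probe sets were under background on both arrays. Of the markers of other cell types, 0 of 6 for fibroblasts, 3 of 5 for immune cells and 1 of 6 for endothelium were above background on both arrays. Over all genes this share was 58.2%. The immune ones were CD3E, CD14 and ITGAM. The endothelial one was PECAM1, like SFTPC through a single one of its probe sets. The fibroblast markers DCN and THY1 and the immune marker CD2 were above background in the control only. The endothelial markers VWF and CDH5, the fibroblast marker COL3A1, and PTPRC, which marks leukocytes, were not above background on either array. The summed signal of the fibroblast markers was 147 with TGF-β and 197 without, that of the immune markers 327 and 429, and that of the endothelial markers 131 and 110. These sums include signals under the background, and with TGF-β 0 of 6 fibroblast markers were above it, so the sums are not read as cell content. The immune marker CD14 was 3.02-fold lower with TGF-β, and the fibroblast marker THY1 was at least 1.46-fold lower. Both arrays were made from the cultured A549 line, and the source of these marker signals was not tested.

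In untreated cells HOX signals came from HOXB, HOXC and HOXD, where they ended before the highest-numbered genes, and from HOXA2, the one HOXA gene measured. With TGF-β 15 of 28 HOX genes (53.6%) were above background, against 19 of 28 (67.9%) in the control, while of all genes 60.3% were above background with TGF-β and 64.3% in the control. On both arrays at once 14 HOX genes passed, against 58.2% of all genes. By cluster, the genes above background numbered 6 of 10 with TGF-β and 8 of 10 in the control for HOXB, 5 of 9 on each array for HOXC, 3 of 8 with TGF-β and 5 of 8 in the control for HOXD, and the single HOXA gene on both. On both arrays HOXB4, HOXB13, HOXC10, HOXC12, HOXC13, HOXD11, HOXD12 and HOXD13 were not above background, with signals of 1.69 to 39.1 with TGF-β and 2.86 to 40.6 without. Most of these are the genes at the high-numbered end of HOXB, HOXC and HOXD, among them HOXB13, known for its role in the prostate, HOXC13, which acts in hair and nails, and HOXD13, which shapes the digits. Divided at a point chosen after the values were seen, 16 members lay in groups 1 to 8, of which 11 were above background with TGF-β and 14 in the control, and 12 in groups 9 to 13, of which 4 were above background with TGF-β and 5 in the control. From HOXB1 to HOXB9, HOXB4 alone was not above background in the control, and its neighbours HOXB3 and HOXB5 were above it on both arrays. HOXC11, with 72.7 with TGF-β and 104 without, was the highest-numbered gene above background, and its neighbour HOXC10 was not. With the background level doubled, 8 HOX genes (28.6%) passed with TGF-β and 12 (42.9%) in the control, against 51.7% and 54.6% of all genes, so many of the HOX signals lay close to the background. The 8 genes past the doubled level with TGF-β were HOXB3, HOXB5, HOXB7, HOXB8, HOXC4, HOXC6, HOXC9 and HOXD8, and these passed it in the control as well.

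**Figure D1:**
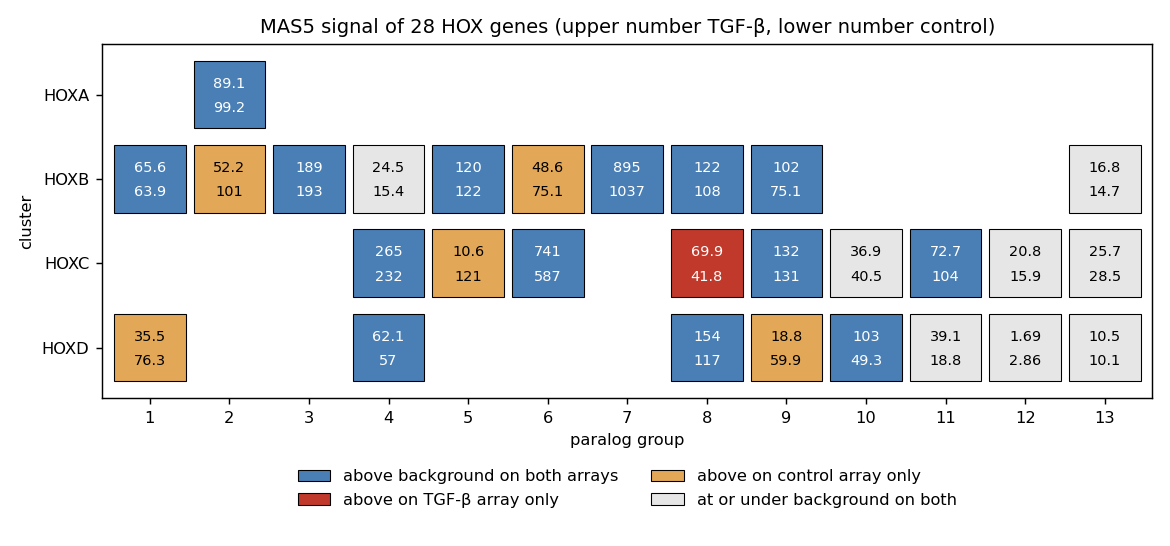
Signals of 28 HOX genes by cluster (rows) and paralog group (columns), with the MAS5 signal with TGF-β above and that of the control below in each box. Colours mark whether the signal was above background on both arrays, on 1 of them or on neither. All 3 measured genes of group 13 and both of group 12 were not above background on either array, while HOXB7, HOXC6, HOXC4 and HOXB3 were far above it on both.

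A set of 4 genes lay more than 3 times above background, and none of them differed by as much as 1.3-fold between the arrays. HOXB7, a trunk gene, had a signal of 895 with TGF-β and 1037 without, a log2 fold change of -0.21. HOXC6, which helps to pattern the thorax in the mouse, had 741 with TGF-β and 587 without (log2 fold change 0.34). The difference of HOXB7 was smaller than the spread that probe sets of its brightness showed in their log2 fold changes, 0.30, while that of HOXC6 was slightly larger than its spread, also 0.30. These spreads are taken over probe sets of the same arrays and not over replicates. The names of the probe sets of HOXB7 and HOXC6 mark shared targets, so their signals may include other transcripts. HOXC4 read 265 with TGF-β and 232 without (log2 fold change 0.20), and HOXB3, which acts in the hindbrain and in blood progenitors, read 189 with TGF-β and 193 without (log2 fold change -0.03). These 4 genes thus lay on both sides of no change, each within 1.3-fold.

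The other genes of HOXB lay near the background and split in their direction. HOXB1, which specifies the part of the hindbrain that forms the facial nerve, read 65.6 with TGF-β and 63.9 without. HOXB5, which in the mouse acts in the lung mesenchyme, read 120 with TGF-β and 122 without, and HOXB8 read 122 with TGF-β and 108 without. These 3 differed by less than 1.2-fold. HOXB9 had 102 with TGF-β and 75.1 without, a log2 fold change of 0.44 against a spread of 0.53. HOXB2, a hindbrain gene, had 52.2 with TGF-β and 101 without, and HOXB6 had 48.6 with TGF-β and 75.1 without. The TGF-β signals of HOXB2 and HOXB6 were under the background of that array, so that HOXB2 was at least 1.79-fold and HOXB6 at least 1.33-fold lower. Neither was called, since the signals as deposited differed by 1.94-fold for HOXB2 and by 1.55-fold for HOXB6. HOXA2, which patterns the hindbrain and the structures of the ear, read 89.1 with TGF-β and 99.2 without, and differed little.

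**Figure D2:**
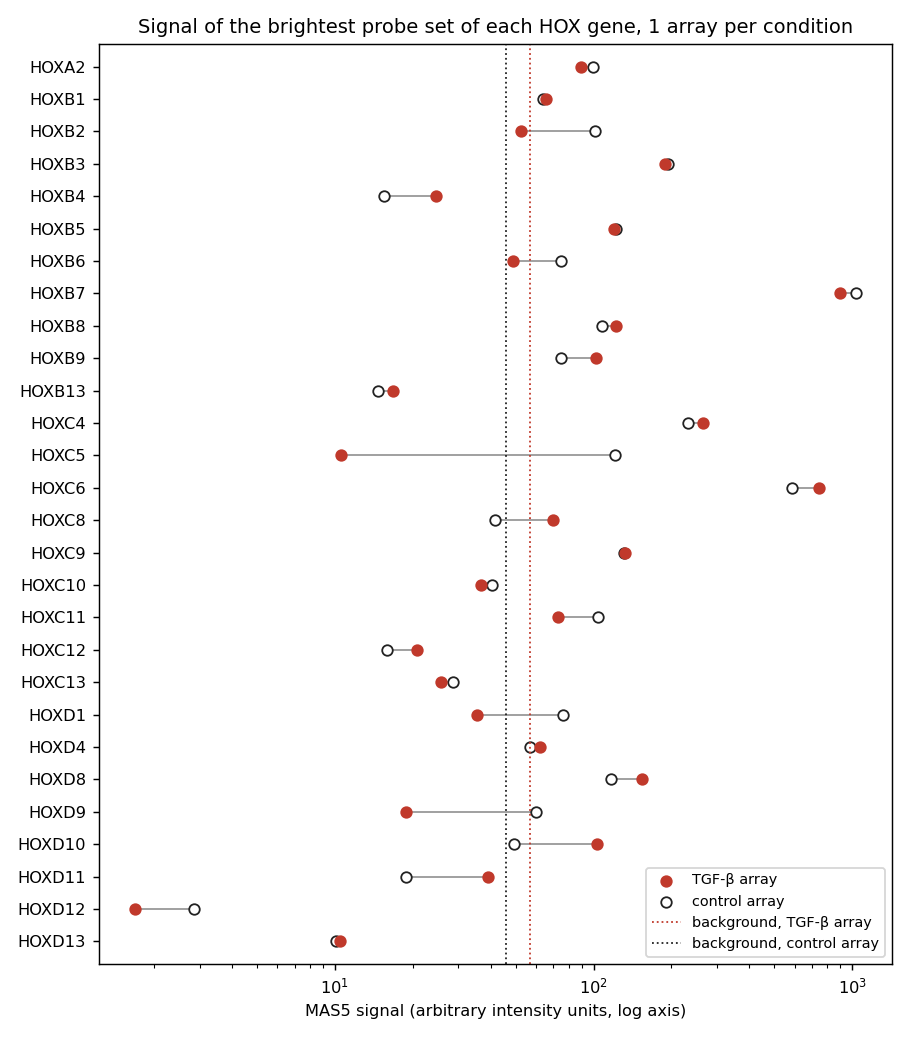
MAS5 signal (log axis) of the brightest probe set of each of 28 HOX genes with TGF-β (red points) and in the control (open points), 1 array each. Dotted lines mark the background, 56.6 with TGF-β and 45.8 without. The red points of HOXB2, HOXB6, HOXC5, HOXD1 and HOXD9 lie at or under the background while their open points lie above it, and the reverse holds for HOXC8.

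In HOXC a single gene was called changed. HOXC5 had a signal of 10.6 with TGF-β and 121 without. The TGF-β signal was far under the background, so the gene was at least 2.15-fold lower, and no closer size can be given. It was measured by 1 probe set. HOXC9, which marks thoracic motor neurons in the mouse, read 132 with TGF-β and 131 without. HOXC8, also a thoracic gene, read 69.9 with TGF-β and 41.8 without, which makes it at least 1.52-fold higher, as the control array gave no signal over background. HOXC11, a gene of the lumbar region and hindlimb, had a log2 fold change of -0.52, about the size of its spread of 0.52. HOXC5 lies between HOXC4 and HOXC6, and RefSeq gives these 3 overlapping genes a common start. It passed the filter used in the counts of changed genes only through its control signal. No contrast with HOXC4 and HOXC6 is therefore read from its 1 dim probe set. The window of 250 bases before the common start on GRCh38.p14 is shown because it is the annotated promoter of HOXC4 and HOXC5 alike. Capitals mark CpG dinucleotides.
HOXC4 and HOXC5, chr12:54016638-54016887, plus strand: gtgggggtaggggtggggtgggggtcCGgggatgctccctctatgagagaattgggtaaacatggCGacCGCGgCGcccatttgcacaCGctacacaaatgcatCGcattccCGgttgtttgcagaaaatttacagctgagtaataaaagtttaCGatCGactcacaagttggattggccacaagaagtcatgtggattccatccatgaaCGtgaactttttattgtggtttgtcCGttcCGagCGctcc
The window holds 14 CpG, against a median of 11 over 35116 RefSeq promoter windows of the same length. Which transcripts the probe sets of HOXC4, HOXC5 and HOXC6 match was not analysed here, and other starts of these genes are not shown.

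HOXD held 1 gene called higher and 1 called lower, and both had a signal near or under background. HOXD10, which acts in lumbar motor neurons and the limb, had 103 with TGF-β and 49.3 without, 2.09-fold higher. Its control signal lay just above the background of 45.8, and its log2 fold change of 1.06 compares with a spread of 0.66. HOXD1, which in the mouse acts in sensory neurons that detect pain, had 35.5 with TGF-β and 76.3 without. The ratio of these signals passed 2-fold, but the TGF-β signal was under background, which leaves HOXD1 at least 1.35-fold lower. HOXD9 had 18.8 with TGF-β and 59.9 without, and was at least 1.06-fold lower on its brightest probe set. The other probe set of HOXD9 read the other way, with 22.5 with TGF-β and 6.68 without, both under background. The mean signal of HOXD9 was too low for the filter used in the counts of changed genes, and so it was not called. HOXD8 read 154 with TGF-β and 117 without, and HOXD4 read 62.1 with TGF-β and 57.0 without, neither reaching 2-fold. HOXD1 passed the filter only through its control signal, and the name of its probe set marks shared targets. With signals under the background raised to it, the log2 fold change of HOXD1 was -0.43 against a spread of 0.74. No contrast between HOXD1 and HOXD10 is therefore read. The promoter windows of HOXD10 and HOXD1 are shown because these are the called genes of HOXD. Each is the 250 bases before the RefSeq start on GRCh38.p14, with CpG dinucleotides in capitals.
HOXD10, chr2:176116528-176116777, plus strand: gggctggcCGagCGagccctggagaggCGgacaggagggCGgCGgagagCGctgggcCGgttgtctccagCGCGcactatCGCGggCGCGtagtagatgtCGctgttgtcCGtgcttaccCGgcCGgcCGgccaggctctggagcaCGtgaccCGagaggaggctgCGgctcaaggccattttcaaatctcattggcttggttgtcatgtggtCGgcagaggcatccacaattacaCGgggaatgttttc
HOXD1, chr2:176188418-176188667, plus strand: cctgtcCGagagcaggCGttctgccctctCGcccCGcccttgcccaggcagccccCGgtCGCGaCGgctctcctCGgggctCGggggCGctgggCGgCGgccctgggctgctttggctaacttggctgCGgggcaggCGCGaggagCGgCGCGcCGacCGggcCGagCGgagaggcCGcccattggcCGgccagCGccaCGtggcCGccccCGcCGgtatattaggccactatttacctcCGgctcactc
The HOXD10 window holds 23 CpG and that of HOXD1 31. Windows were at hand for 11 of the 28 members, and the median over their 10 distinct windows was 18.5 CpG. Searched on both strands, CAGAC, a core that Smad proteins can bind, was in 3 of the 10 windows and in 38.0% of all promoters, TATAAA in 1 and in 10.7%, and TGATTNAT, a site for PBX with HOX proteins, in 2 and in 2.48%. Neither the 2 windows of HOXD nor that of HOXC4 and HOXC5 held any of these motifs, which says only that the letters are not in these windows.

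For the count of changed genes, probe sets entered if their mean signal was 48.7, the median over probe sets, or more. Genes with a ratio of 2-fold or more were called, a threshold on size alone without a test. Of the 28 HOX genes, 19 were kept. HOXD10 was higher, HOXC5 and HOXD1 were lower, and 16 were neither. This is 15.8% of the kept members, while over all 12375 kept genes 6.89% were called (3.94% higher, 2.96% lower). HOXC5 and HOXD1 passed the filter only through their control signals, so nothing about the group is read from these counts. When both signals had to be above background, 14 HOX genes remained and HOXD10 alone was called, which is 7.14%, against 4.29% of 11513 such genes (2.94% higher, 1.35% lower) and 5.55% of those in the range of mean signals of the HOX genes. Of the 14 genes, 9 were higher and 5 lower by any amount, and the log2 fold changes of HOXC6 and HOXD10 exceeded the spread at their brightness, 14.3% of members against 35.9% of all such genes. The median log2 fold change was 0.08 over these 14 HOX genes and -0.03 over all genes above background on both arrays. Over all 28 members without a filter it was 0.03, against -0.04 over all genes.

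**Figure D3:**
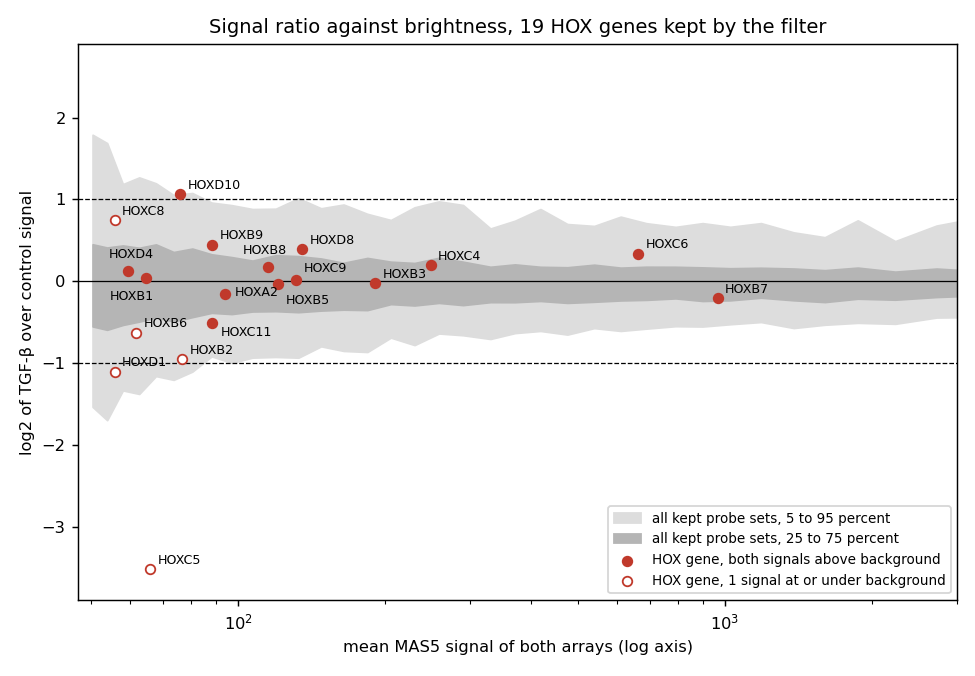
Log2 of the TGF-β over the control signal (y axis) against the mean signal of both arrays (x axis, log scale) for the 19 kept HOX genes. Filled points had both signals above background, open points had 1 at or under it, grey bands hold 25 to 75 and 5 to 95 percent of all kept probe sets, and dashed lines mark 2-fold. HOXB7, HOXC4 and HOXB3 lie near 0, and HOXC6 lies somewhat above the 25 to 75 percent band. The points past 2-fold are the dim HOXD10, HOXD1 and HOXC5.

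More HOX genes dropped under the background with TGF-β than came above it. HOXB2, HOXB6, HOXC5, HOXD1 and HOXD9 were above background in the control only, and HOXC8 with TGF-β only, while 6.13% of all genes were above it in the control only and 2.09% with TGF-β only. All 6 genes lay within 3 times the background. Of the 16 HOX genes above background somewhere and within 3 times of it, 5 (31.2%) were above it in the control only and 1 (6.25%) with TGF-β only. Over all 3096 genes in the same range the shares were 38.3% and 12.9%, so the HOX shares were no higher than those of dim genes in general. The background level itself was higher on the TGF-β array, 56.6 against 45.8. The median of the Bacillus subtilis probe sets was lower there, 5.43 against 13.2. The TGF-β signals of HOXB2 (52.2) and HOXB6 (48.6) lay above 45.8, and those of HOXC5, HOXD1 and HOXD9 lay under it.

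Several probe sets of a gene read the same RNA on the same array, and so they check a signal but are not replicates. Of 28 members, 13 had several probe sets, and in 3 of them more than 1 was above background on both arrays. The 3 probe sets of HOXB7 gave log2 fold changes of -0.21, -0.20 and -0.17, and the 2 of HOXB9 gave 0.44 and 0.43. Those of HOXB7 and HOXB9 thus lay close together. For HOXB5 the brightest gave -0.03, while the other, with 79.7 with TGF-β and 144 without, gave -0.85. In none of the 3 genes did such probe sets fall on both sides of no change. The other 2 probe sets of HOXD10 read 5.75 and 6.15 with TGF-β and 3.17 and 2.99 without, under the background, so that its higher signal rests on 1 probe set. The second probe set of HOXD1 read 3.06 with TGF-β and 22.7 without, also under the background.

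**Figure D4:**
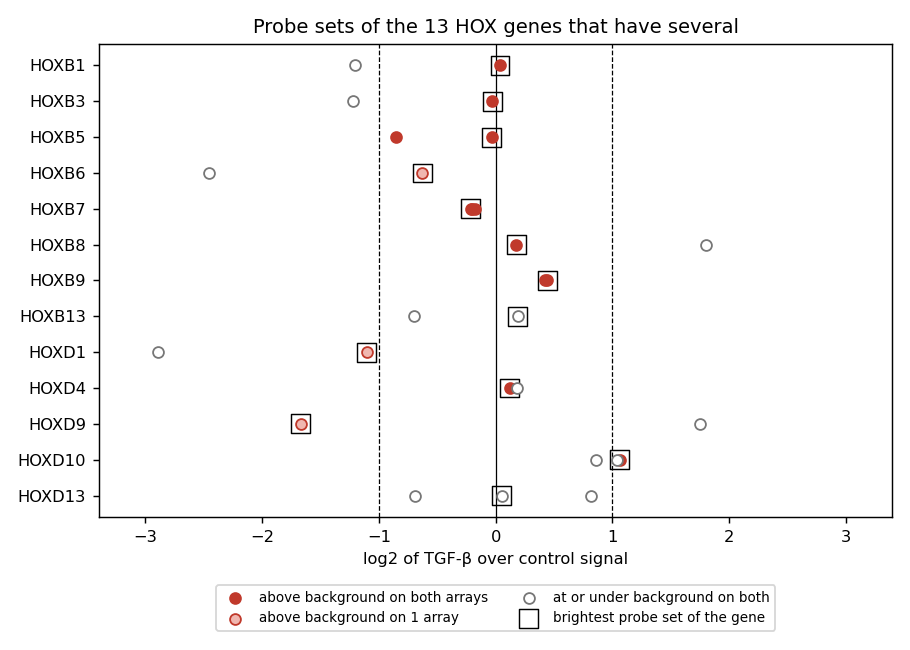
Log2 of the TGF-β over the control signal for each probe set of the 13 HOX genes that have several. Dark points were above background on both arrays, pale points on 1 and open points on neither, squares mark the brightest probe set, and dashed lines mark 2-fold. The dark points of HOXB7 and of HOXB9 lie on top of each other, while the open points, which are at background, scatter widely.

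Of 8 measured TALE genes, which encode partners of HOX proteins, 6 were above background on both arrays, and PKNOX2 was not above it on either. The 7 genes that were kept included none called at 2-fold, with a median log2 fold change of 0.12. MEIS3 changed most among those above background on both arrays, with 194 with TGF-β and 111 without. PBX3 read 768 with TGF-β and 597 without, and MEIS2 686 with TGF-β and 875 without, while MEIS1 was at 52.3 with TGF-β, under background, and 48.0 without, just above it. At the flanks of the clusters, 0 of 10 kept genes were called. Over all kept genes 6.89% were called, so with so few genes the lack of calls in these lists says little. The largest difference among them was that of CALCOCO1 next to HOXC, with 70.2 with TGF-β and 98.4 without.

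Noncoding RNAs that are transcribed within the clusters behaved differently from one another. Of 11 measured, 4 were kept, and 1 was called, beside 6.89% of all kept genes. This was HOXA-AS2, which is antisense to genes of the HOXA cluster. Its brightest probe set read 150 with TGF-β and 422 without, 2.81-fold lower, its second 79.7 with TGF-β and 108 without, and its last was under background on both arrays. Both probe sets of HOXA-AS2 above background thus read lower with TGF-β, but by different amounts. HOXD-AS2, which lies next to HOXD8, read 242 with TGF-β and 125 without, 1.94-fold higher and short of the rule. HAGLR, beside HOXD1, read 145 with TGF-β and 157 without on its brightest probe set. A second probe set of HAGLR went the other way, with 59.1 with TGF-β, just above background, and 28.4 without, under it. The last one of HAGLR was under background on both arrays. HOTTIP, at the far end of HOXA, read 84.0 with TGF-β and 88.4 without. HOTAIR, transcribed from HOXC, was not above background on either array.

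Among regulators of the clusters, a few were called. Of 23 kept Polycomb genes 1 was higher and 0 were lower. This was JARID2, a subunit of the complex PRC2, with 1582 with TGF-β and 624 without, 2.53-fold higher, and a second bright probe set gave 2.44-fold. EZH2, the methyltransferase of PRC2, read 1298 with TGF-β and 1638 without. Of 20 kept MLL and trithorax genes, KDM6B, which removes the mark that PRC2 places, was 2.04-fold higher, with 587 with TGF-β and 288 without, and the other 19 were not called. Its 4 further probe sets also read higher with TGF-β. In the retinoid pathway, RDH10, which makes retinaldehyde, was 2.74-fold lower, with 982 with TGF-β and 2689 without, and DHRS3, which turns retinaldehyde back into retinol, was 2.19-fold higher, with 2179 with TGF-β and 997 without. The other 10 of 12 kept retinoid genes, among them the receptor RARB, were not called. These counts stand beside the 6.89% called among all kept genes, and a link from these genes to the HOX signals was not tested.

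**Figure D5:**
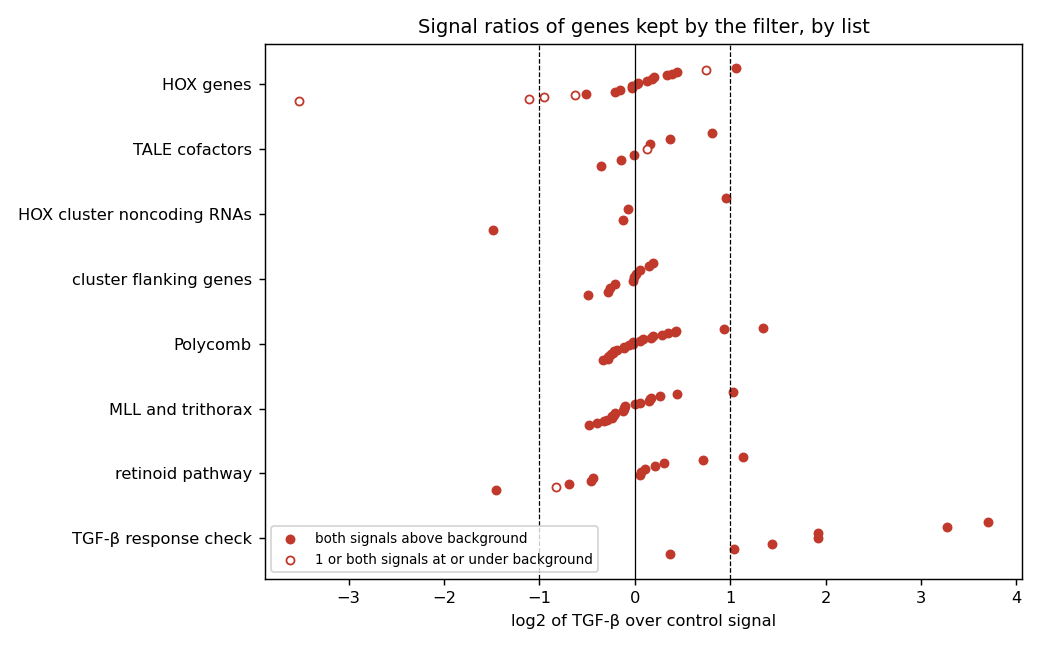
Log2 of the TGF-β over the control signal of kept genes in each list, with HOX genes at the top and genes known to respond to TGF-β at the bottom. Filled points had both signals above background, open points did not, and dashed lines mark 2-fold. The TALE and flanking genes all lie within 2-fold, while 6 of 7 response genes lie beyond it.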

How the data were processed

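A549 cells with and without TGF-β gave 1 Affymetrix array each. The authors deposited linear intensities, 1 per probe set. The submitters' processing notes name MAS5 and no version. Both arrays had the same trimmed mean and were used as deposited. MAS5 settings are not given in the sources.

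Leaving out controls, 54613 probe sets remained. The platform annotation gave 41091 of them 1 gene symbol and 1801 several, and 11721 are unnamed here. RefSeq (GRCh38.p14) supplied current symbols, and promoter windows were taken from RefSeq on that build. Folds are the TGF-β signal over the control signal. The spread at a brightness is the median absolute deviation, times 1.4826, of log2 fold changes among the 500 kept probe sets closest in mean log2 signal. The named genes are every HOX gene above background on an array and, in other lists, the largest changes of at least 2-fold or else the largest change. Not every list gene that this rule takes is printed, and a few more are named, both chosen after their values were seen. The members, lists, background level and rules were chosen with earlier results of these data known. The calls were checked on simulated data with noise smaller than the spread at the brightness of any kept HOX gene. That check shows only that the rule was coded as meant, and does not bear on calls of dim genes. Alternatives were filters, a floor, an offset, rescaling, other choices of probe set and other background levels. Python 3.11.15, numpy 2.4.6, pandas 2.3.3, statsmodels 0.14.6 and matplotlib 3.10.9 were used.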

Additional observations from a re-analysis of the deposited data

How the results depend on the processing

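Each condition had 1 array, so no replicate could be left out and the variation between cultures is unknown. No paired analysis was possible because each condition had 1 array and no test was made. The 3 HOX genes changed at least 2-fold (1 higher, 2 lower) became 5 (2 higher, 3 lower) without a filter, adding HOXD11 and HOXD9, 0 (0 higher, 0 lower) with mean signals at the 75 percentile, where only HOXB7 and HOXC6 remained, and 1 (0 higher, 1 lower, HOXC5) with 50 added to every signal. The genes at least 2-fold lower were 1 with signals under the background raised to it, which leaves out HOXD1, and 1 without probe sets whose names mark shared targets. By construction, leaving out the filter admits dimmer genes, the higher filter removes dim ones, and the floor and the offset shrink ratios of dim signals. Rescaling (medians, quantiles, loess) changed none of these counts, and the median log2 fold change of the kept HOX genes lay between 0.01 and 0.07 in every setting. With the background level doubled, an alternative chosen after the data had been seen, HOX genes above it were 8 with TGF-β and 12 in the control instead of 15 and 19. Probe sets whose names mark shared targets stood for HOXB5, HOXB6, HOXB7, HOXB8, HOXC6, HOXC13 and HOXD1. Without such probe sets 24 HOX genes had a value, and 11 were above background with TGF-β and 13 in the control. The log2 fold change of HOXC5 (-3.52) was -1.10 with the floor and -1.50 with the offset, and that of HOXB5 was -0.85 when the most changed probe set stood for the gene. Of 167 values of single genes under alternatives, the other 164 moved by less than the spread at their brightness. Many of these could not move, because the setting left the probe set of the gene and both its signals as they were. The count is therefore not read as a sign of stability. Signal over background limits these results, since HOXC5 and HOXD1 had a signal under it and HOXD10 had one just above it.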

Other observations

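Beyond the genes with 1 symbol, 3 probe sets carried the symbols of HOXD3 and HOXD4 together with another gene. Their signals were 2.27, 21.1 and 22.5 with TGF-β and 1.96, 20.9 and 33.2 without, all under the background of their array, and so they add no signal for HOXD3.

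The CDX and ParaHox genes are relatives of the HOX genes outside the clusters, and CDX proteins are known to activate HOX genes in the embryo. Of 6 measured, GSX2 was above background in the control only, with 49.8 with TGF-β and 70.0 without, which is at least 1.24-fold lower. CDX1, CDX2, CDX4, GSX1 and PDX1 were not above background on either array.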
